A study of Mus musculus with 10 samples.

Results

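Interferon-stimulated genes were followed in human breast cancer cells grown in mice, at the primary tumor and in lymph node metastases. The set holds 46 genes taken from a list of names, chosen with earlier results of these data known. Of them 45 had a probe set that carried exactly 1 gene symbol, out of 19556 such genes on the array. Each gene was read from 1 probe set, the one with the highest mean over the 10 arrays. STAT2, the 46th name, had no such probe set and is not analysed here. All 45 genes passed the filter on low values, so that 45 of the 17170 tested genes belong to the set.

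Interferons are secreted proteins that cells release after sensing viral or misplaced nucleic acid. They bind receptors that act through JAK kinases on STAT and IRF9 transcription factors, which switch on a shared program of antiviral genes. In breast tumors these genes vary widely between specimens and are expressed by cancer cells as well as by immune cells.

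The arrays measured RNA from human breast cancer cells that had been laser-captured from frozen sections of xenografts, and that RNA was amplified by PCR before labelling. All hosts were female nu/nu mice, a strain that lacks a thymus and keeps its innate immune cells, aged 20 weeks, and all had received an estrogen pellet. In the estrogen groups (E) the pellet stayed in place, and in the estrogen withdrawal groups (EWD) it had been taken out 1 week earlier. Lymph node metastases came from E mice 6, 11 and 14 and from EWD mice 9, 10 and 19, and primary mammary gland tumors came from E mice 11 and 14 and from EWD mice 10 and 19. The labels do not name the cancer cell line, and host cells left in a captured section would be mouse cells read on human probe sets.

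Values are the deposited log2 intensities and are given in 1 order throughout: E lymph nodes of mice 6, 11 and 14, EWD lymph nodes of mice 9, 10 and 19, E primary tumors of mice 11 and 14, and EWD primary tumors of mice 10 and 19. A difference of 1 on this scale is 2-fold. The replicate was the mouse, and the arrays numbered 3, 3, 2 and 2 in the groups. In bulk RNA, fewer cells of a type and less RNA per cell cannot be told apart. Differences between groups were tested with limma over all 17170 genes, with the mouse as a random block, and a gene was called where the Benjamini-Hochberg adjusted p was below 0.05.

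Array medians lay between 2.70 and 2.83, but the top 1% of probe sets began at 9.44 and 10.04 on the E primary tumor arrays and between 11.39 and 11.67 on the other 8 arrays. High values were therefore compressed in the E primary tumors. The limma comparisons of the set that use that group are also given after quantile normalization. Values of single genes are the deposited ones unless stated. The lymph node array of E mouse 11 stood apart from the other E lymph nodes. ESR1, the estrogen receptor gene, read 5.44 there, against 9.22 and 10.24 in mice 6 and 14. The ACTB 3' minus 5' control difference, a measure of RNA quality, was 6.63 there against 5.81 and 5.40, and 4.27 and 4.49 on the E primary tumor arrays. For GAPDH it was 4.33 against 3.90 and 4.17, and 3.15 and 3.73 on the E primary tumor arrays. The highest GAPDH difference was 5.87, in the EWD primary tumor of mouse 19. The part of RNA quality in any result was not tested. The hybridization controls, which are spiked-in RNAs, averaged 12.04 on the mouse 11 lymph node array against 10.59 and 9.65 in mice 6 and 14. They reached 12.31 to 12.47 on 3 EWD arrays. Each comparison of the 45 members below is given with and without the mouse 11 lymph node array. A fit with the hybridization controls as a covariate is given in the closing section. It changed the calls of some members and turned the sign of MX1 in the primary tumors. Luminal tumor cell markers averaged 8.09 to 10.72 over the 10 arrays and leukocyte markers 2.57 to 2.95, near the array medians. Among the leukocyte markers, CD79A read 3.73 to 6.52, and ITGAM read 5.06 in the lymph node of mouse 11.

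The interferon-stimulated genes were high in the lymph node of E mouse 11 and low in the lymph nodes of the other E mice. Their mean was 5.12, 8.10 and 5.66 in the E lymph nodes, 6.50, 6.56 and 6.51 in the EWD lymph nodes, 6.78 and 6.71 in the E primary tumors, and 7.46 and 6.56 in the EWD primary tumors. The E lymph nodes spanned more than all other arrays together, and the EWD lymph nodes were nearly level. Group means were 6.30 ± 1.59 (SD, n = 3) for E lymph nodes, 6.52 ± 0.03 (SD, n = 3) for EWD lymph nodes, 6.75 ± 0.05 (SD, n = 2) for E primary tumors and 7.01 ± 0.63 (SD, n = 2) for EWD primary tumors. These neighbours in order differ by less than the spread of the E lymph nodes. After quantile normalization the array means were 5.01, 8.13 and 5.47, then 6.20, 6.33 and 6.48, then 7.63 and 7.38, then 7.28 and 6.45. The order inside the lymph nodes was kept, while both E primary tumors moved above both EWD primary tumors.

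**Figure D1:**
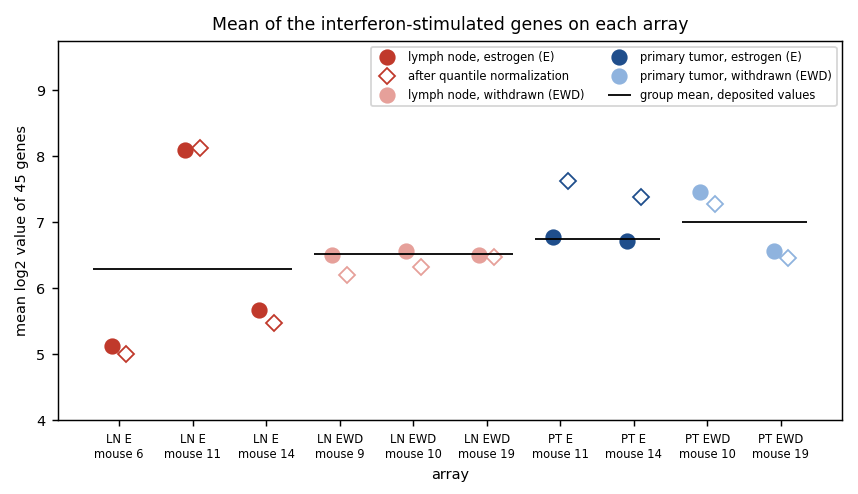
Mean log2 value of the 45 interferon-stimulated genes on each of the 10 arrays (filled circles, deposited values; open diamonds, after quantile normalization; horizontal lines, group means of the deposited values). The E lymph node of mouse 11 reaches 8.10 while mice 6 and 14 read 5.12 and 5.66, and the E primary tumors rise to 7.63 and 7.38 after quantile normalization.

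The rank of the genes within each array does not depend on its scale. The median member stood at percentile 49.9, 89.2 and 60.6 of all tested genes in the E lymph nodes of mice 6, 11 and 14. In the EWD lymph nodes it stood at percentile 69.6, 71.4 and 72.8. It stood at percentile 86.4 and 87.2 in the E primary tumors, and at 82.0 and 75.7 in the EWD primary tumors. By rank, the E primary tumors thus came next to the mouse 11 lymph node.

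The counts that follow describe the set and are not a test, as its members were chosen with earlier results of these data known. Of the 45 genes, 42 were higher in the lymph node of mouse 11 than in both other E lymph nodes, against 35.2% of all tested genes. The excess over the higher of those 2 arrays was above 1 log2 unit for 31 of the 45, against 4.35% of all tested genes, and its median was 2.04 over the set and -0.24 over all genes. In the probe sets read here, SAMD9L, TRIM14 and EPSTI1 were the exceptions, with no excess in mouse 11. The array of mouse 11 carried the highest value of 23 genes and that of mouse 6 the lowest value of 25, where 18.4% and 3.95% of all genes had theirs. The EWD primary tumor of mouse 10 carried the highest value of 13 more, against 10.5% of all genes. The heatmap of all 45 genes shows these 3 arrays as the extremes.

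**Figure D2:**
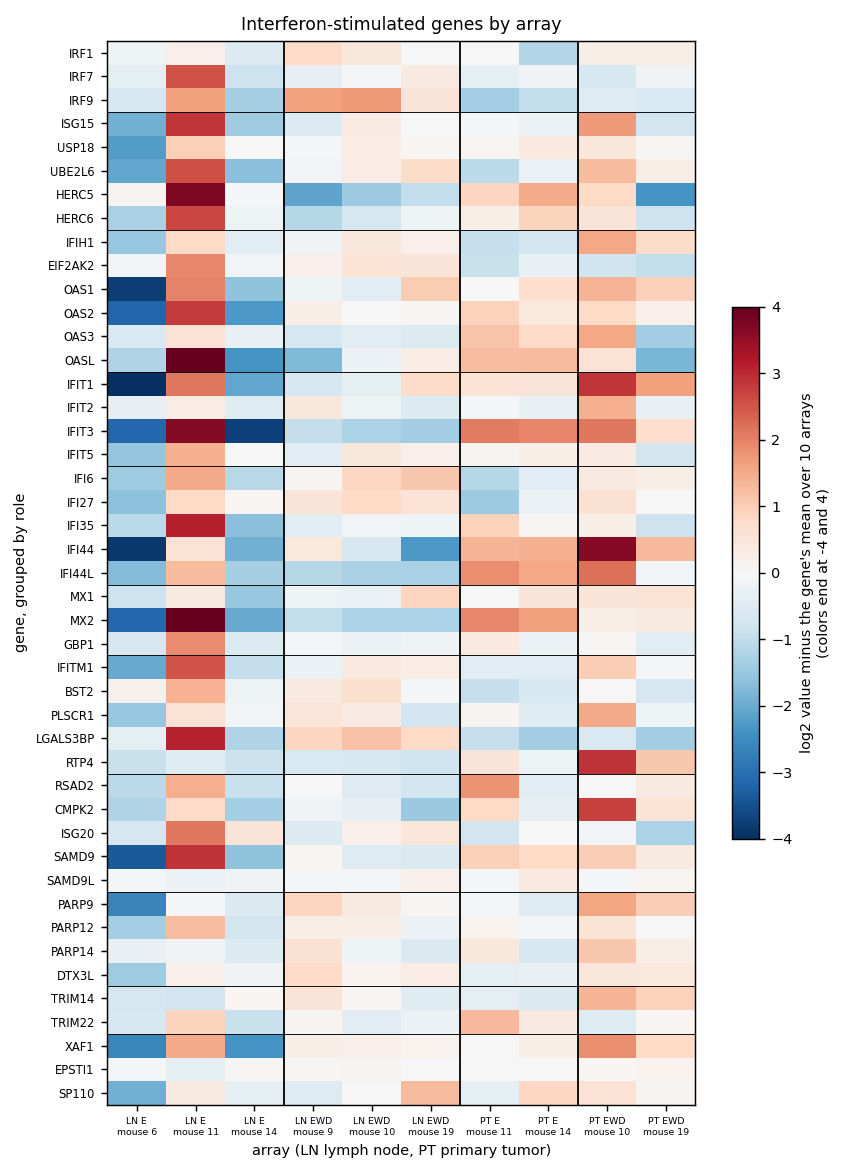
Each of the 45 genes (rows, grouped by role) on each of the 10 arrays (columns), colored by its log2 value minus the gene's own mean over the arrays, with colors ending at -4 and 4. Red marks values above the gene's mean: the E lymph node of mouse 11 is red in most rows, mouse 6 is blue in most, and the EWD primary tumor of mouse 10 is red for IFIT1, IFI44, RTP4 and CMPK2.

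The transcription factors of the set did not move alike. IRF7, which amplifies interferon production, read 7.41, 10.32 and 6.95, then 7.45, 7.72 and 8.14, then 7.37 and 7.62, then 7.13 and 7.62. The mouse 11 lymph node was high and the other 9 arrays lay between 6.95 and 8.14. IRF9, the DNA-binding subunit of the factor that interferon receptors activate, read 6.01, 8.34 and 5.39, then 8.33, 8.41 and 7.24, then 5.36 and 5.74, then 6.21 and 6.12. The EWD lymph nodes all lay above both EWD primary tumors, by 1.84 ± 0.78 (SE) with a limma adjusted p of 0.477. IRF1, a factor shared with interferon gamma signalling, stayed between 2.59 and 4.53.

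ISG15 is a ubiquitin-like protein that interferon induces and that is attached to other proteins by UBE2L6, its conjugating enzyme, and HERC5, its ligase. ISG15 read 6.41, 11.20 and 6.92, then 7.81, 8.67 and 8.37, then 8.29 and 8.12, then 10.04 and 7.62. Mouse 11 exceeded mice 6 and 14 by at least 4.28, and the EWD lymph nodes fell between. UBE2L6 had the same shape, with 7.82, 12.47 and 8.22, then 9.80, 10.21 and 10.64, then 8.86 and 9.65, then 11.18 and 10.17. HERC5 read 7.46, 11.09 and 7.27, then 5.26, 5.91 and 6.38, then 8.23 and 8.86, then 8.15 and 5.0. It was the 1 gene of the set with every E lymph node above every EWD lymph node, a pattern found in 4.47% of all genes. USP18, the protease that removes ISG15, read 5.04 in mouse 6 and 7.22 to 8.23 on the other 9 arrays. HERC6, the related ligase that serves ISG15 in mouse, was highest in mouse 11 at 10.55 and between 6.57 and 8.78 elsewhere.

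Several genes of the set sense or act on double-stranded RNA. OAS1, OAS2 and OAS3 are enzymes that make the oligoadenylates which activate RNase L, and OASL is a relative without that activity. OAS2 read 2.77, 8.75 and 3.66, then 6.23, 5.94 and 5.99, then 6.88 and 6.39, then 6.76 and 6.16. Mice 6 and 14 were the lowest of the 10 arrays and mouse 11 the highest. OASL read 4.46, 9.69 and 3.26, then 3.89, 5.42 and 5.94, then 6.88 and 6.93, then 6.24 and 3.82. OAS1 ran from 4.52 in mouse 6 to 10.26 in mouse 11. OAS3 ran only from 3.38 to 6.31 and was highest in the EWD primary tumor of mouse 10. IFIH1, the cytoplasmic sensor MDA5, read 8.32, 10.63 and 9.39, then 9.70, 10.28 and 10.04, then 8.91 and 9.08, then 11.37 and 10.55. Both EWD primary tumors were above both E primary tumors, but after quantile normalization the groups overlapped, at 10.55 and 10.20 with estrogen and 10.98 and 10.26 after withdrawal. EIF2AK2, the kinase PKR that blocks translation, read 9.39, 11.43 and 9.39, then 9.71, 10.06 and 10.01, then 8.62 and 9.21, then 8.71 and 8.52. All 6 lymph node arrays lay above the 4 primary tumor arrays, but after quantile normalization the E primary tumors read 10.13 and 10.38, above every lymph node except that of mouse 11.

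The IFIT proteins bind the ends of foreign RNA. IFIT1 read 2.53, 9.86 and 5.67, then 7.07, 7.37 and 8.50, then 8.32 and 8.26, then 10.61 and 9.39. Its range of 8.07 over the 10 arrays was the largest in the set. Its 3 highest values came from the mouse 11 lymph node and the EWD primary tumors. After quantile normalization the E primary tumors read 9.63 and 9.26, above the EWD primary tumor of mouse 19 at 9.14. IFIT3 read 3.09, 9.91 and 2.50, then 5.29, 4.95 and 4.84, then 8.30 and 8.17, then 8.33 and 6.92. All 4 primary tumors lay above all lymph nodes but that of mouse 11. IFIT5 read 4.81 to 7.78. IFIT2 never rose above 3.78 and was near the array median on most arrays.

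Among the IFI genes, IFI44, a cytoplasmic protein induced by interferon alpha, read 2.17, 6.62 and 4.11, then 6.47, 5.40 and 3.74, then 7.39 and 7.48, then 9.70 and 7.34. Here the mouse 11 lymph node was below all 4 primary tumors. IFI44L, its relative, read 1.87, 4.86 and 2.28, then 2.47, 2.29 and 2.31, then 5.44 and 5.14, then 5.80 and 3.49. IFI35 followed mouse 11, at 7.97 against 3.19 to 5.79 elsewhere. IFI6 and IFI27, small membrane proteins with high signal, read 9.89 to 12.82 and 11.10 to 13.56.

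MX1 and MX2 are dynamin-like GTPases that trap viral components. MX2 read 3.01, 10.66 and 4.14, then 5.18, 4.92 and 4.92, then 8.06 and 7.79, then 6.39 and 6.50. The primary tumors were above every lymph node except that of mouse 11, which was 6.52 above the nearer of the other E lymph nodes. MX1 stayed between 2.45 and 4.82. GBP1, a guanylate-binding protein, read 4.70 in mouse 11 and 2.16 to 3.20 elsewhere.

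Of the membrane and secreted products, IFITM1, which blocks virus entry, read 6.97, 11.47 and 8.02, then 8.74, 9.34 and 9.26, then 8.53 and 8.51, then 9.96 and 8.88. LGALS3BP, a secreted galectin-binding glycoprotein, read 8.53, 12 and 7.71, then 9.76, 10.08 and 9.70, then 7.99 and 7.51, then 8.30 and 7.51. Both were highest in mouse 11, and for LGALS3BP the EWD lymph nodes came next. BST2, the tetherin that holds virus at the cell surface, read 11.07, 12.29 and 10.71, then 11.26, 11.54 and 10.81, then 9.97 and 10.26, then 10.91 and 10.22. RTP4, a chaperone of receptor transport, read 2.12 to 2.53 on all 6 lymph node arrays, 3.53 and 2.82 in the E primary tumors, and 5.91 and 4.10 in the EWD primary tumors. It was the clearest case in the set of a gene that read near the array median in the lymph nodes and higher in the primary tumors. PLSCR1, a lipid scramblase, ran from 4.72 to 7.78.

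The remaining effectors included SAMD9, a restriction factor of poxviruses, which read 3.54, 9.80 and 5.30, then 6.98, 6.37 and 6.33, then 7.83 and 7.68, then 7.89 and 7.25. XAF1, which binds the apoptosis inhibitor XIAP, read 4.56, 8.70 and 4.79, then 7.41, 7.36 and 7.31, then 7.20 and 7.42, then 9.02 and 7.99. For both genes mice 6 and 14 were the lowest 2 arrays. CMPK2, a mitochondrial nucleotide kinase, was highest in the EWD primary tumor of mouse 10 at 6.31 and read 2.10 to 4.39 elsewhere. RSAD2, the antiviral enzyme viperin encoded beside it, was highest in the E primary tumor of mouse 11 at 4.85. ISG20, an exonuclease, read 11.65 in mouse 11 and 8.26 to 10.04 elsewhere.

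PARP9, of the ADP-ribosyltransferase family, forms a complex with DTX3L, a ubiquitin ligase. PARP9 read 4.67, 7.22 and 6.71, then 8.17, 7.67 and 7.35, then 7.26 and 6.80, then 8.87 and 8.27. It was the 1 gene with every E lymph node below every EWD lymph node, against 5.46% of all genes. PARP12 was highest in mouse 11 at 9.04 and PARP14 in the EWD primary tumor of mouse 10 at 4.57. TRIM14, an adaptor of mitochondrial antiviral signalling, read 7.98, 7.90 and 8.75, then 9.18, 8.74 and 8.18, then 8.27 and 8.11, then 10.04 and 9.59. The mouse 11 lymph node was its lowest array, but after quantile normalization TRIM14 read 8.08 there and 7.75 in the lymph node of mouse 6. TRIM22, an antiviral ubiquitin ligase, read 1.87 to 4.03, and SP110, a nuclear body protein, 6.29 to 9.48. SAMD9L and EPSTI1 stayed within 2.34 to 2.98 and 2.00 to 2.54, near the array medians.

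In the lymph nodes, the comparison of E with EWD called none of the 45 genes at an adjusted p below 0.05, and it called 0% of all tested genes. The median difference, E minus EWD, was -0.28 over the set and -0.02 over all genes, and 30 of the 45 were lower with estrogen, against 52.2% of all genes. At an unadjusted limma p below 0.05, 1 member was higher and 1 lower, against 2.09% and 3.74% of all genes. HERC5 had the largest positive difference, 2.76 ± 1.08 (SE, adjusted p = 0.789), and IFIT1 the largest negative, -1.63 ± 1.50 (SE, adjusted p = 0.946).

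Leaving out the lymph node of mouse 11 moved the median difference to -1.13, against 0.01 for all genes, and 2 members were then called lower with estrogen, where 0.0233% of all genes were. OAS2 was lower by a log2 difference of -2.84 ± 0.33 (SE, limma adjusted p = 0.0405) and XAF1 by -2.69 ± 0.30 (SE, limma adjusted p = 0.0405). At an unadjusted p below 0.05, 20 members were lower, against 2.87% of all genes. No member was called higher, against 0.0291%. Leaving out both arrays of mouse 11 leaves 1 E primary tumor in the fit, so no calls are given for it. The median difference was then -1.13, against 0.01 for all genes. The mouse 11 lymph node held the highest mean of the set, so this shift follows from leaving it out. In counts, mouse 11 was above all 3 EWD lymph nodes for 34 genes, against 30% of all genes, and mice 6 and 14 were both below all 3 EWD lymph nodes for 28 genes, against 9.2% of all genes.

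**Figure D3:**
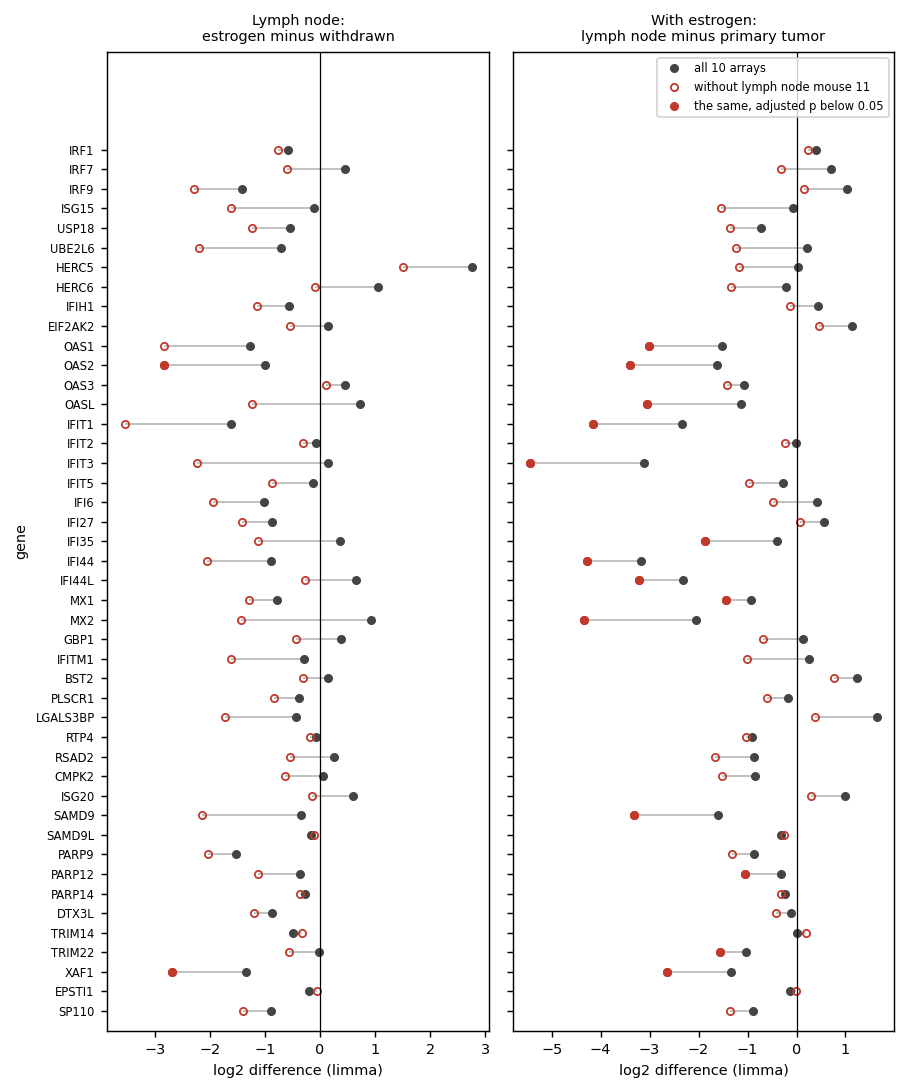
Log2 differences of the 45 genes from limma, E minus EWD in the lymph nodes (left) and lymph node minus primary tumor with estrogen (right). Dark points use all 10 arrays and red circles leave out the lymph node of mouse 11, filled where the adjusted p was below 0.05: most genes shift to lower values without it, with 2 filled on the left and 14 on the right.

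In the primary tumors, 1 member was called, which was lower with estrogen than after withdrawal, against 6.94% of all genes called lower and 0.879% called higher. This was TRIM14, at -1.61 ± 0.40 (SE, limma adjusted p = 0.0453). After quantile normalization TRIM14 stood at -0.19 and no member was called, against 0.757% of all genes called higher and 0.582% lower. At an unadjusted limma p below 0.05, 3 members were lower and 0 higher, against 20.9% and 5.13% of all genes. IFIH1 (-1.95 ± 0.64, SE) and RTP4 (-1.83 ± 0.52, SE) had adjusted p of 0.0946 and 0.0668. The median was -0.24 over the set and -0.10 over all genes, and after quantile normalization it was 0.72 and 0.06. The direction of the set in the primary tumors therefore depended on the scaling of the compressed E arrays.

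In 15 genes both E primary tumors were below both EWD primary tumors, against 38.3% of all genes, and in 4 genes, HERC5, OASL, MX2 and TRIM22, both were above, against 22.6%. Without the lymph node of mouse 11, whose spread enters the shared variance, limma called 4 members lower, IFIH1, RTP4, TRIM14 and XAF1, and 1 higher, MX2, against 18.5% and 2.31% of all genes. MX2 then differed by 1.47 ± 0.36 (SE, limma adjusted p = 0.0211). After quantile normalization without that array none was called lower and 6 were called higher, BST2, EIF2AK2, HERC5, IFIT3, ISG20 and MX2, against 6.38% and 4.65% of all genes. The 2 EWD primary tumors were themselves apart: mouse 10 was above mouse 19 for 38 of the 45 genes, against 50.4% of all genes, and by over 1 log2 unit for 19, against 6.35%. The E primary tumors of mice 11 and 14 were apart by that much for 6 genes, against 5.6%.

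The difference between the lymph node response and the primary tumor response to estrogen was called for none of the 45 genes, and 0.0116% of all genes were called lower and 0% higher. At an unadjusted limma p below 0.05, 1 member was higher and none lower, against 8.67% and 2.18% of all genes. The median was -0.03 over the set and 0.15 over all genes, and 24 of the 45 were lower, against 40.2%. After quantile normalization no member was called, against 0.00582% of all genes called lower and 0% higher. The median was then -0.96 over the set and -0.02 over all genes, and 39 of the 45 were lower, against 51.6%. The size of the difference therefore depended on the scaling. Without the lymph node of mouse 11, 3 members were called lower, against 0.588% of all genes, and none higher, against 8.4%. These were OAS2 (-3.0 ± 0.48, SE), MX2 (-2.90 ± 0.48, SE) and IFIT3 (-2.84 ± 0.59, SE), with limma adjusted p of 0.0186, 0.0186 and 0.0259. Their values with estrogen were low in both remaining lymph nodes and high in both primary tumors. The array left out had the highest mean of the set among the E lymph nodes, so leaving it out lowers the lymph node response by itself. Leaving out both arrays of mouse 11 leaves 1 E primary tumor, so no calls are given for that fit.

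Between sites with estrogen, the median difference, lymph node minus primary tumor, was -0.27 over the set and 0.26 over all genes. No member was called, while 7.81% of all genes were called higher in the lymph node and 0.949% lower. At an unadjusted limma p below 0.05, 1 member was higher and 2 lower, against 19.4% and 3.65% of all genes. IFI44 had the largest difference, -3.18 ± 1.30 (SE, adjusted p = 0.186), followed by IFIT3 at -3.11 ± 1.88 (SE, adjusted p = 0.374). After quantile normalization the median was -1.22 over the set and 0.02 over all genes, and again no member was called, while 0.0757% of all genes were called higher and 0.384% lower. Both BST2 and EIF2AK2 were above both primary tumors in all 3 lymph nodes, a pattern of 28% of all genes that did not hold for either after quantile normalization. OAS3, IFI44, IFI44L and RTP4 were below both in all 3, a pattern of 9.98%.

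Without the lymph node of mouse 11 the median fell to -1.18, against 0.28 for all genes, and 14 members were called lower in the lymph node, where 2.03% of all genes were called lower and 20.4% higher. The array left out had the highest mean of the set among the E lymph nodes, so leaving it out lowers their mean by itself, and with all 10 arrays none was called. The 14 were the oligoadenylate synthetase genes OAS1, OAS2 and OASL, IFIT1 and IFIT3, IFI35, IFI44 and IFI44L, the GTPases MX1 and MX2, SAMD9, PARP12, TRIM22 and XAF1. IFIT3 was lower by -5.45 ± 0.44 (SE, limma adjusted p = 0.00145), MX2 by -4.35 ± 0.35 (SE, limma adjusted p = 0.00145) and IFIT1 by -4.17 ± 0.92 (SE, limma adjusted p = 0.0144). The smallest of these differences was that of PARP12, -1.06 ± 0.31 (SE, limma adjusted p = 0.043). When the primary tumor of mouse 11 was left out as well, 5 remained called, IFIT3, MX2, OAS2, SAMD9 and XAF1, against 1.73% of all genes. That comparison has a single primary tumor, which limma takes to vary like the other groups.

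After withdrawal, no member was called between sites and 0% of all genes were called. The median was -0.40 over the set and 0.07 over all genes. By unadjusted limma p, 2 members were higher and 5 lower in the lymph node at p below 0.05, against 8.03% and 2% of all genes. RTP4 had an adjusted p of 0.146 for a difference of -2.67 ± 0.48 (SE). Without the lymph node of mouse 11 again no member was called, while 0.221% of all genes were called higher and 0.0233% lower. In 13 genes all 3 lymph nodes were below both primary tumors, against 10.2% of all genes. In 3 genes, EIF2AK2, IRF9 and LGALS3BP, all were above, against 20.8%.

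Both sites were sampled in 4 mice, and the site difference changed sign between the 2 E mice. In mouse 11 the lymph node was above the primary tumor by over 1 log2 unit for 26 members and below for 1, against 18.1% and 7.86% of all genes, with a median of 1.50 over the set and 0.12 over all genes. In mouse 14 it was above for 0 members and below for 20, against 31.8% and 4.2%, with a median of -0.66 against 0.23. IFIT3 shows the contrast: the lymph node exceeded the primary tumor by 1.61 in mouse 11 and fell short, at -5.67, in mouse 14. The primary tumors of these mice were alike for this gene, at 8.30 and 8.17, so the contrast came from the lymph nodes. After quantile normalization the medians of the set were 0.33 in mouse 11 and -1.62 in mouse 14, against -0.01 and -0.0041 for all genes.

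In EWD mouse 10 the lymph node was above for 3 members and below for 20, against 10.1% and 4.71% of all genes, with a median of -0.82 over the set and 0.10 over all genes. In EWD mouse 19 it was above for 7 and below for 8, against 7.92% and 12.2%, with a median of 0.06 against 0.05. IFI44 was lower in the lymph node in all 4 mice, by differences of -4.30, -0.77, -3.36 and -3.60 in mice 10, 11, 14 and 19. LGALS3BP was higher in the lymph node in all 4, by 1.78, 4.01, 0.20 and 2.19, but after quantile normalization the difference in mouse 14 was -1.01. The plot of site differences within mice shows mouse 11 alone with its median well above 0.

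**Figure D4:**
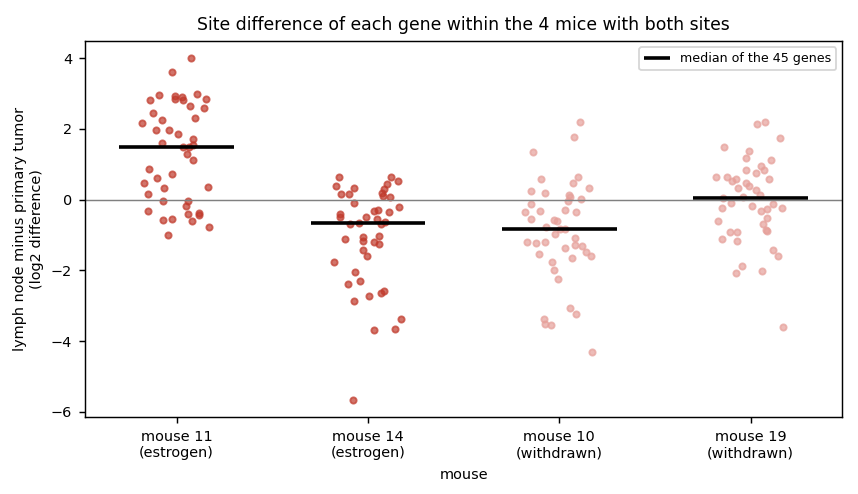
Lymph node minus primary tumor (log2 difference) for each of the 45 genes, 1 point per gene, in the 4 mice with both sites, with the median as a bar. The medians are 1.50 in mouse 11 and -0.66 in mouse 14 with estrogen, and -0.82 in mouse 10 and 0.06 in mouse 19 after withdrawal.

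Among the interferons themselves, 2 type III ligands followed the mouse 11 lymph node. IFNL1 read 2.81, 8.20 and 2.75, then 3.26, 3.40 and 2.83, then 3.07 and 3.56, then 3.37 and 2.50. IFNL2 read 3.29, 8.24 and 2.50, then 4.02, 5.24 and 4.0, then 4.40 and 4.66, then 5.73 and 3.11. For IFNL1 every other array was near the array median, and for IFNL2 the next highest were the primary tumor and lymph node of EWD mouse 10. Each has 1 probe set, and IFNL2 and IFNL3 are near-identical paralogs whose signals can mix. The IFNL3 probe set read 2.63 to 3.36, IFNB1 2.22 to 3.41 and IFNG 2.14 to 3.16. Of 19 ligand genes with a probe set 12 were tested and none was called in any of the 5 comparisons. The part of the ligands in the members' levels was not tested.

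**Figure D5:**
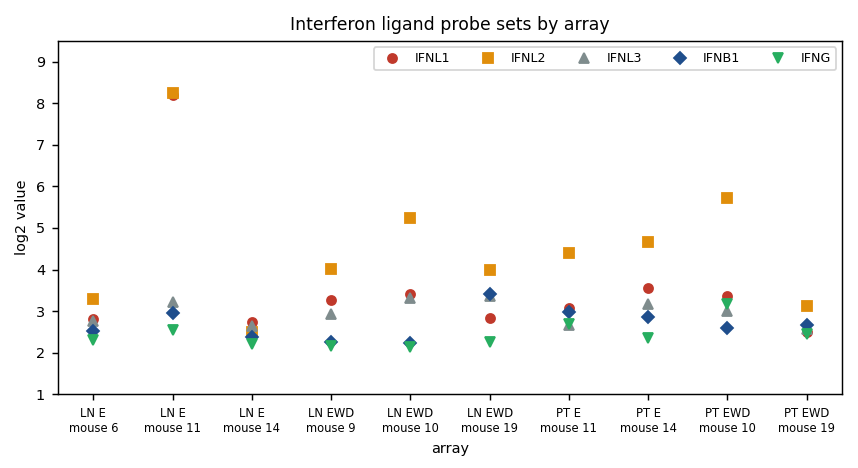
Log2 values of the probe sets of 5 interferon ligand genes on each of the 10 arrays. IFNL1 and IFNL2 reach 8.20 and 8.24 in the E lymph node of mouse 11, while IFNL3, IFNB1 and IFNG stay at or below 3.41 on every array.

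The receptor and kinase genes did not share the pattern of the set. Of 10 with a probe set, 2 were above both other E lymph nodes in mouse 11, against 35.2% of all genes. The excess passed 1 log2 unit for 0, against 4.35%. The 2 were the kinase TYK2, at 9.17, 9.67 and 8.39 in the E lymph nodes, and the transcription factor STAT3, at 5.88, 6.83 and 4.68. The type I receptor genes IFNAR1 and IFNAR2 read 3.59, 3.14 and 3.98 and 5.91, 5.92 and 6.00 in the same arrays, and JAK1, the kinase common to the receptors, read 7.20, 6.30 and 8.39. IFNGR1, a subunit of the interferon gamma receptor, was called lower with estrogen in the primary tumors (-1.84, limma adjusted p = 0.0326), and no other gene of that list was called in any comparison with all 10 arrays. Without the mouse 11 lymph node, 1 gene of the list was called higher and 3 lower in the primary tumors, against 2.31% and 18.5% of all genes. After quantile normalization IFNGR1 stood at -1.34 (adjusted p = 0.087).

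The nucleic acid sensors were mixed. In mouse 11, 11 of 20 were above both other E lymph nodes, against 35.2% of all genes. The excess passed 1 log2 unit for 4, against 4.35%. Among these 4 were RIGI, the RNA sensor RIG-I, at 4.09, 8.18 and 5.88, and SAMHD1, a nucleotide triphosphatase, at 4.84, 7.84 and 5.75. IRF3, a factor that induces interferon genes, read 7.36, 7.62 and 6.42. ZBP1, a sensor of Z-form nucleic acid, was called higher with estrogen in the primary tumors (1.38, limma adjusted p = 0.0218), and after quantile normalization as well (1.51, adjusted p = 0.0367). It was called lower in the lymph node than in the primary tumor with estrogen, at -1.47 (limma adjusted p = 0.0104) and, after quantile normalization, -1.62 (adjusted p = 0.0317). ADAR, an RNA-editing enzyme, was called at -1.70 in the primary tumors, but stood at 0.12 after quantile normalization. Of the 5 negative regulators, PTPN2, a phosphatase of JAK kinases, was called lower with estrogen in the primary tumors (-1.71) and stood at -1.74 (adjusted p = 0.0617) after quantile normalization. SOCS1, an inhibitor of JAK kinases, read 5.46, 5.76 and 5.58 in the E lymph nodes.

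A second list held 43 further interferon-induced genes with a probe set. Mouse 11 was above both other E lymph nodes for 35 of them and by over 1 log2 unit for 21. The shares of all genes were 35.2% and 4.35%. On that array 24 had their highest value, against 18.4% of all genes. GBP3, a guanylate-binding protein, read 2.09, 6.39 and 2.89 in the E lymph nodes and 4.87, 4.86 and 5.27 in the EWD lymph nodes. SHFL, an inhibitor of ribosomal frameshifting, read 6.04, 9.97 and 6.03 in the E lymph nodes and 7.30, 7.69 and 7.69 in the EWD lymph nodes. CXCL10, a chemokine of the interferon response, reached only 2.95 in mouse 11, and CXCL11 reached 4.16 there and at most 3.26 elsewhere.

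Antigen presentation genes followed mouse 11 in part. Of 16 with a probe set, 14 were above both other E lymph nodes in mouse 11, 7 by over 1 log2 unit. The highest value of 4 was there. The shares of all genes were 35.2%, 4.35% and 18.4%. NLRC5, the activator of MHC class I genes, read 3.06, 8.58 and 4.21, then 4.58, 4.29 and 6.41, then 8.15 and 7.96, then 8.98 and 6.65. HLA-F, a class I heavy chain, read 9.95, 13.35 and 10.25 in the E lymph nodes. TAP1, the peptide transporter subunit, went the other way, with 9.65 in mouse 11 against 11.52 and 11.49. TAP1, B2M, PSME1 and PSME2 were called lower with estrogen in the primary tumors, at -3.16, -2.42, -1.80 and -1.97, against the 6.94% of all genes called lower there. B2M is the class I light chain, and the PSME genes encode a proteasome activator. After quantile normalization they stood at -1.41, -0.66, 0.04 and -0.14 and none was called. Over the 6 lists beside the members, 98 genes were tested. In the primary tumors 1 was called higher with estrogen and 10 lower, where 0.879% and 6.94% of all genes were. Between sites with estrogen 7 were called higher in the lymph node and 1 lower, where 7.81% and 0.949% of all genes were. After quantile normalization ZBP1 alone was still called in each, and 3 of the 11 and 6 of the 8 turned sign. Without the mouse 11 lymph node the counts were 4 higher and 15 lower in the primary tumors, against 2.31% and 18.5% of all genes, and 11 higher and 12 lower between sites with estrogen, against 20.4% and 2.03%. After quantile normalization without that array they were 8 and 4, against 4.65% and 6.38%, and 1 and 14, against 1.09% and 1.58%.

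The likeness of the genes across arrays was described by Pearson's r of each member with the mean of the other members over the 10 arrays, which share their amplification and, for 4 pairs, the mouse. The median r was 0.70, and 15 members were above 0.8, 18 between 0.5 and 0.8, and 12 at or below 0.5. The median for all other genes was -0.13, and 0.286% of them, or 49 of 17125, were above 0.8. PARP12 had an r of 0.97, OAS2 and SAMD9 of 0.96 and ISG15 of 0.95, while TRIM14 had 0.13 and EPSTI1 -0.45. Without the lymph node of mouse 11 the median was 0.69, but EIF2AK2 went from 0.33 to -0.33, BST2 from 0.32 to -0.22 and HERC5 from 0.47 to 0.06. These last genes thus resembled the set through that array.

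The 12 other genes most like the mean of the members included HCAR3, with an r of 0.94, SHFL (0.92), RIGI (0.91), HLA-B (0.90), LTBP2 (0.89), HLA-F (0.88), SLC15A3 (0.88) and REC8 (0.87). Of the 12, 4 stood on the interferon lists. SLC15A3, a histidine and peptide transporter of lysosomes, read 3.59, 6.27 and 3.43 in the E lymph nodes and 3.75 to 4.76 elsewhere. REC8, a meiotic cohesin subunit, read 5.79, 8.44 and 6.05 in the E lymph nodes and 6.93 to 7.70 elsewhere.

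Other probe sets of the same genes were examined for the excess in mouse 11. For 25 members there was more than 1 probe set, with 55 others in all. Of these 55, 38 were above both other E lymph nodes in mouse 11 and 20 by over 1 log2 unit. Among the 5 others of TRIM14, 2 were above both, 1 of them by 2.45. The 2 others of SAMD9L were above both by at most 0.26, and the 1 other of EPSTI1 was not. Some members with an excess in the probe set read here had others without it. Of the 3 others of EIF2AK2, 1 was above both, and the lowest difference from the higher of those arrays was -1.04. The 1 other of IFIT5 stood at -1.04 and the 1 other of IFIT2 at -0.60. Of the 3 others of HERC6, 0 were above both, and their highest mean was only 2.53. The probe set read for XAF1 is of a class whose probes may cross-hybridize with other transcripts.

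Markers of other cells gave these values beside the excess in mouse 11. Of 12 leukocyte markers, 4 were highest on that array, against 18.4% of all genes. The mean of the 12 was 2.65 to 2.95 in the E lymph nodes and 2.63 to 2.80 in the EWD lymph nodes. It was 2.83 to 2.85 in the E primary tumors and 2.57 to 2.61 in the EWD primary tumors. PTPRC, the pan-leukocyte marker CD45, read 2.00 to 2.54 on all 10 arrays, near or below the array medians. ITGAM, a myeloid integrin, read 5.06 in mouse 11 and at most 3.28 elsewhere, and LILRA4, a marker of plasmacytoid dendritic cells, read 7.60 there and at most 6.36 elsewhere. CLEC4C, another such marker, read 2.05 in mouse 11. The leukocyte marker CD79A read 6.52, 5.19 and 5.37 in the E lymph nodes of mice 6, 11 and 14. In the same arrays the plasmacytoid markers GZMB and TCL1A read 2.42, 2.16 and 2.56 and 3.06, 2.59 and 2.78. Mouse 11 was above both other E lymph nodes for 4 of the 12 leukocyte markers and 2 of the 5 plasmacytoid markers. That held for 35.2% of all tested genes. The 5 plasmacytoid markers averaged 3.10 to 3.42 in the E lymph nodes and 2.82 to 3.25 in the other groups. The 9 stromal and endothelial markers averaged 3.71 to 4.37 in the E lymph nodes, with 8 of them above both other mice in mouse 11, and 3.65 to 4.21 in the other groups. Luminal markers averaged 9.21 in mouse 11 and 10.06 and 10.00 in mice 6 and 14. The part of these markers in the members' levels was not tested.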

How the data were processed

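The deposited values are log2 probe set intensities of 61359 probe sets on 10 arrays. Partek and RMA are named in the submitters' processing notes, without versions, and further steps are not given in the sources used here. Probe sets with exactly 1 gene symbol (44532) gave 19556 genes, each read from its probe set of highest mean. Genes with a mean under the 25th percentile of probe set means (2.31) were left out, which kept 17170. Groups, the 5 comparisons and mouse numbers come from the labels. limma 3.58.1 in R 4.3.3 (lmFit, eBayes, 4 group means, mouse as a random block through duplicateCorrelation, consensus correlation -0.04) gave differences and p-values, adjusted by Benjamini-Hochberg over all tested genes, and was tested on simulated data. Same-numbered arrays come from 1 animal, and their deviations from the group means correlated at 0.176, -0.208, -0.210 and 0.0831 in mice 10, 11, 14 and 19.

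The members and the other gene lists were chosen with earlier results of these data known. Members were named by role, and other genes where they were called, were fixed by name, led their list or ranked among the 12 most alike in r. STAT3, RIGI, SAMHD1, GBP3, SHFL, CXCL10, CXCL11, NLRC5 and HLA-F were named after their values were seen. Alternatives were quantile normalization, no filter, a filter at the 50th percentile, no block, a fixed mouse block, the mean of all probe sets, the hybridization controls as a covariate, and each array left out. Leaving out the mouse 11 lymph node after quantile normalization, and leaving out both arrays of mouse 11, were added after seeing the data. Signal over background and the number of arrays limit the precision. The planned search for interferon response motifs was not run, and no sequence is printed.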

Additional observations from a re-analysis of the deposited data

How the results depend on the processing

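With all 10 arrays, no member was called in either site comparison, in the lymph nodes or for the difference of the responses, and TRIM14 alone was called in the primary tumors. Without a block, without the filter and with the stricter filter these calls were the same. With the replicate block as a fixed effect, which can be fitted for the site comparisons and the difference of the responses, 0 members were called, and their median was 0.14 between sites with estrogen and 0.62 for the responses.

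In the primary tumors the count became 0 after quantile normalization (median 0.72) and 0 with the mean of all probe sets. It became 4, of them 3 higher and 1 lower, with the hybridization controls as a covariate (median 0.52), against 7.09% and 27.8% of all genes, with MX1 turned to 1.03. It ranged from 0 to 5 when each array was left out in turn. After quantile normalization without the mouse 11 lymph node it was 6, all higher, with a median of 0.66 and BST2 turned to 1.35. In that setting 4.65% of all genes were called higher and 6.38% lower. Without both arrays of mouse 11 only 1 E primary tumor was left, so no counts of that fit are given for any comparison. TRIM14 lost its call without any 1 of the 4 primary tumors, E lymph node 6 or EWD lymph node 10.

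In the lymph nodes the count ranged from 0 to 2 over the arrays left out. It was 1, XAF1, lower, after quantile normalization without mouse 11 (0.0175% of all genes lower). For the difference of the responses it was 2, 1 in each direction, with the covariate (median -0.99; 20% of all genes higher, 3.55% lower). It was 0 to 3 over the arrays left out, and 4, all lower, after quantile normalization without mouse 11 (median -1.92, 0.186% lower). Between sites with estrogen it was 2, both lower, with the covariate (3.82% of all genes lower), and 0 to 14 over the arrays left out. It was 17, all lower, after quantile normalization without mouse 11 (median -1.86, 1.58% lower). In the 17, UBE2L6 turned to -2.93, IFIH1 to -1.85, EIF2AK2 to -1.22, IFI6 to -2.33 and IFITM1 to -2.57. After withdrawal it was 3, of them 1 higher and 2 lower, with the covariate (median 0.26; 5.36% of all genes higher, 7.9% lower), and the median ranged from -0.87 to 0.0055 over the arrays left out. The higher counts without mouse 11 come with a smaller spread in the E lymph nodes, and otherwise the cause was not tested.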
